A study of Homo sapiens with 10 samples.

Results

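CRYAB encodes alphaB-crystallin, a small heat shock protein that holds misfolded proteins in a soluble state. It was followed here with 9 other heat shock chaperone genes, HSPB1, HSPB8, BAG3, DNAJB1, HSPA8, HSPH1, HSPA4L, HSP90AA1 and HSPD1. The set was chosen because CRYAB was higher in drug-treated A549 cells but not in the drug-resistant line AD32, and the others were named for comparison. The levels of CRYAB in these arrays therefore chose it, and its differences between groups are given as descriptions with no test. Each of the 10 genes was matched through the platform annotation to a single probe set, out of 18279 genes with a probe set of their own.

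Total RNA from cultured human cells was hybridised to 10 Affymetrix arrays, 1 array per sample. AD32 4E-BP1 (n = 1), labelled sensitive and named for the translational repressor 4E-BP1, was kept in 0.01% DMSO. AD32 (n = 3), labelled resistant, was grown in 32 nM discodermolide, a natural product that stabilises microtubules. A549 (n = 6), a human lung adenocarcinoma line, was given 32 nM discodermolide (n = 2, labelled senescent) or 0.01% DMSO (n = 4, labelled sensitive). The treatment times, how the AD32 line was selected, whether it is 1 clone, and how 4E-BP1 was introduced are stated by none of the labels. AD32 was not measured without the drug, so in the comparison with A549 in DMSO the line and the drug cannot be told apart. AD32 4E-BP1 and AD32 also differ in drug as well as in 4E-BP1.

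Values are log2 signals as deposited. Their array medians lay between 6.50 and 6.63 and their lower quartiles between 4.77 and 4.94, and no detection call came with them. EIF4EBP1, which encodes 4E-BP1, stood at 11.61 on the AD32 4E-BP1 array, against 8.93, 7.99 and 8.63 on the AD32 arrays. The epithelial keratin genes KRT8 and KRT18 were at 12.67 to 14.00 on every array. The leukocyte gene PTPRC lay at 2.77 to 3.20 and the endothelial gene PECAM1 at 4.11 to 4.75, and the lung lineage gene NKX2-1 was low, at 4.58 to 5.11. EPCAM, another epithelial gene, was also low, at 3.30 to 3.87, and the keratin gene KRT19 lay below the array medians, at 5.71 to 6.28. Markers of other lineages were not all low. The fibroblast gene COL1A1 lay at 7.69 to 8.16 and the muscle gene ACTA1 at 7.41 to 7.92. COL3A1, another fibroblast gene, reached 8.78 in A549 in DMSO. The fibroblast gene DCN lay at 2.88 to 3.22 and the muscle gene MYL2 at 3.89 to 4.57. The mean of 12 G2/M and mitosis genes differed within groups as well as between them. It was 10.28 in AD32 4E-BP1, then 5.44, 6.61 and 10.09 in AD32 replicates 1 to 3, 7.13 and 7.36 in A549 in discodermolide, and 7.30, 10.35, 10.43 and 10.41 in A549 DMSO replicates 1 to 4. A549 DMSO replicate 1 thus had a mitotic level like that of the treated cells, and AD32 replicate 3 one like that of A549 in DMSO. A549 DMSO replicates 3 and 4 were nearly identical (r = 0.9973 over probe sets). The labels call the samples biological replicates without saying how they were grown apart, so p-values measure the spread between these samples only.

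Heat shock proteins are chaperones that bind unfolded proteins, prevent aggregation and help refolding or degradation. Small heat shock proteins such as alphaB-crystallin, HSPB1 and HSPB8 act without ATP and pass clients on to the HSP70 system, in which DNAJ proteins deliver clients and HSP110 proteins and BAG proteins release nucleotide. When unfolded proteins build up, heat shock factor 1 binds repeated GAA units, called heat shock elements, in the promoters of many chaperone genes. In muscle and lens alphaB-crystallin is abundant, and in cultured cells it has been linked to intermediate filaments, microtubules and actin.

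The start sites of 9 of the 10 genes were covered by 15 windows of 300 bases (250 before and 50 after the start, RefSeq, GRCh38.p14), and CRYAB was not among them. Runs of 3 units (GAANNTTCNNGAA or TTCNNGAANNTTC, both strands) were found in a window of 3 genes, HSPA8, HSP90AA1 and HSPD1 (3 of the 15 windows). They were also found in 0.49% of 35116 windows of all genes. Pairs of units (GAANNTTC or TTCNNGAA), which the longer motif contains, were found in a window of 7 genes (8 of the 15 windows) and in 13.5% of all windows. The windows of 5 of these genes are shown, the 3 with the longer motif and 2 with more than a single pair of units, because they carry letters of the element that heat shock factor 1 binds. Each sequence runs 5′ to 3′ on the strand of the gene, with every paired unit in capitals.
HSPA8 (chr11:123062087-123062386, minus strand): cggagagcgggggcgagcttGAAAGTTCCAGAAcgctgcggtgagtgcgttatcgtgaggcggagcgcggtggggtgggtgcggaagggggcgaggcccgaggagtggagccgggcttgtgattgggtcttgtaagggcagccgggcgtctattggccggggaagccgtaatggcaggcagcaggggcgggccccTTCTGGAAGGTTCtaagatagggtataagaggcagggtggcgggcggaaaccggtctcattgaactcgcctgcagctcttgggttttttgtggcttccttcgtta
HSP90AA1 (chr14:102086995-102087294, minus strand): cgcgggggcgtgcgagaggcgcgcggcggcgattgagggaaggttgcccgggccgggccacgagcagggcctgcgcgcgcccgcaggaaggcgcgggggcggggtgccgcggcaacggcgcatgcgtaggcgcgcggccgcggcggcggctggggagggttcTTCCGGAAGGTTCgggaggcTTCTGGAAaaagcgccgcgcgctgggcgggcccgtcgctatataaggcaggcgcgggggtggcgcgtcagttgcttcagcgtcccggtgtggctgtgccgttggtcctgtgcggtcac
HSPD1 (chr2:197499791-197500090, minus strand): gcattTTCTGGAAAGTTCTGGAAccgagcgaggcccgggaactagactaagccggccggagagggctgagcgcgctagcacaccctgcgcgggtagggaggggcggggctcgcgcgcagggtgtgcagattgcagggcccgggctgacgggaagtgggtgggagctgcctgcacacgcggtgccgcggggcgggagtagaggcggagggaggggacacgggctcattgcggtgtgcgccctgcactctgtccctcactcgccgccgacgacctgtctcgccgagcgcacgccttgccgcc
DNAJB1 (chr19:14518348-14518647, minus strand): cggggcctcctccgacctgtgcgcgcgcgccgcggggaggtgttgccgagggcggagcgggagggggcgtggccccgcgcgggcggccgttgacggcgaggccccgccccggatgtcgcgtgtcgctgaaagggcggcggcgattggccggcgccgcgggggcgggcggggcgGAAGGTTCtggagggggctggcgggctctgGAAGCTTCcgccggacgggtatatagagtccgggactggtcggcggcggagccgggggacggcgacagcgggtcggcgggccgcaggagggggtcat
HSPB8 (chr12:119178681-119178980, plus strand): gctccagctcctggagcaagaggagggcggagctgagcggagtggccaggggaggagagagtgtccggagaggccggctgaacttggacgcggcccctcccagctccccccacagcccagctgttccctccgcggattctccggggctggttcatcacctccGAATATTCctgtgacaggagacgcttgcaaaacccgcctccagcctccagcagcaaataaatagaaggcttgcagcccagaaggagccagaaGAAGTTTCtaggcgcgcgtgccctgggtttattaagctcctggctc
The HSPA8 window held the longer motif at 2 places, starting 230 and 55 bases before the start site. HSP90AA1 held it 88 bases before the start, and HSPD1 held it in 2 overlapping copies starting 245 and 240 bases before. DNAJB1 held pairs of units 77 and 47 bases before the start. HSPB8 held a pair 88 bases before its start and another 5 bases into the transcript. Windows not printed held a pair 170 bases before the start of HSPA4L, 182 bases before that of HSPB1 and 2 bases into a transcript of DNAJB1 from another start. No paired unit lay in the windows of BAG3 and HSPH1. A match is a run of letters and was not shown to be bound by any factor here.

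CRYAB was the gene of the set with the widest range. It stood at 6.09 on the AD32 4E-BP1 array. In AD32 it was 4.80, 4.97 and 4.49. In A549 in discodermolide it was 9.79 and 9.83, against 8.20, 6.59, 6.50 and 6.40 in A549 DMSO replicates 1 to 4. No 2 groups overlapped, and the order was A549 in discodermolide, A549 in DMSO, AD32 4E-BP1 and AD32. The gap between AD32 4E-BP1 and the lowest A549 DMSO array was smaller than the SD among the 4 A549 DMSO arrays (0.85), which rests on replicate 1. The other 3 A549 DMSO arrays, at 6.40 to 6.59, spanned less than that gap, so whether these neighbours in the order differ beyond the spread depends on that 1 array.

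**Figure D1:**
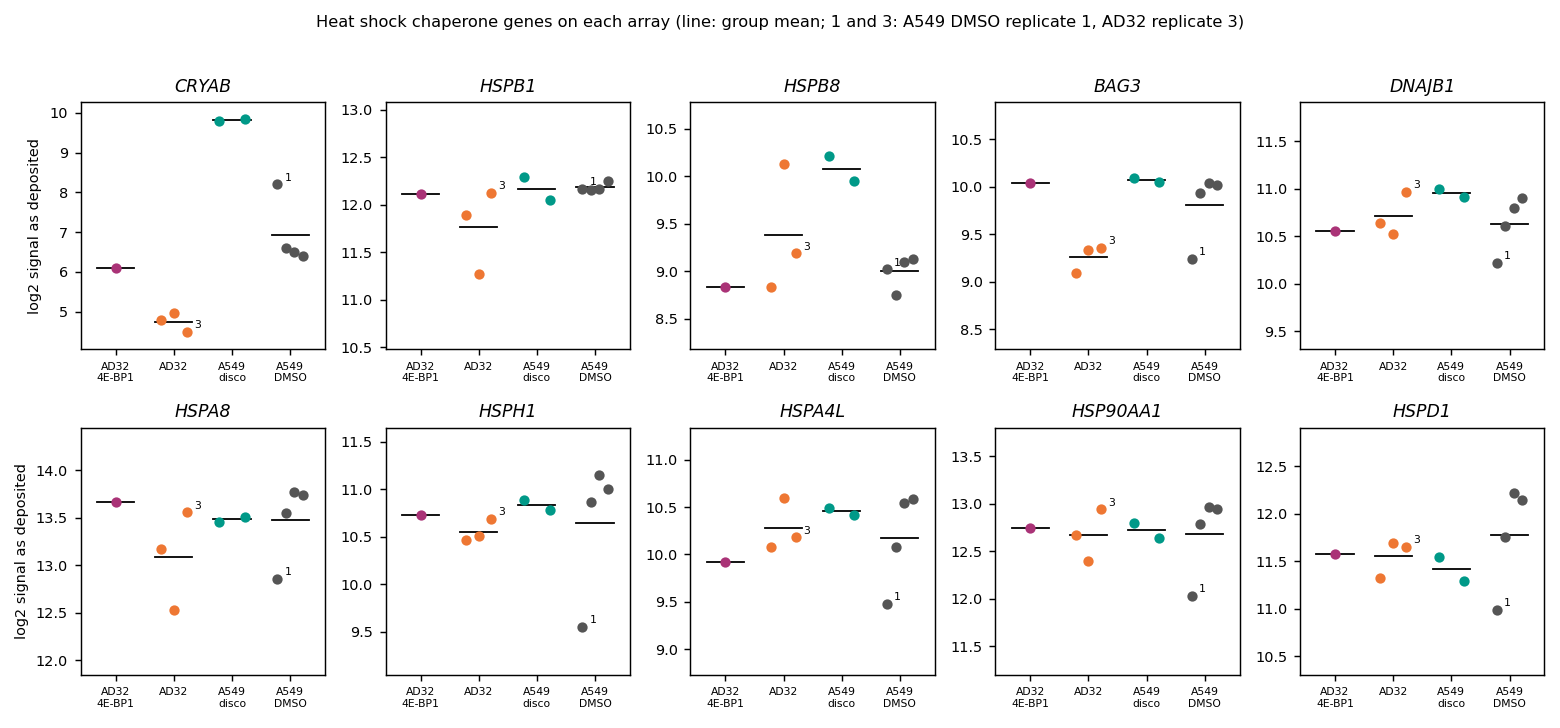
Log2 signal (vertical axis, 1 point per array) of CRYAB and 9 other chaperone genes in AD32 4E-BP1, AD32, A549 in discodermolide and A549 in DMSO, with a line at each group mean and numbers at A549 DMSO replicate 1 and AD32 replicate 3. The vertical axis of CRYAB spans more than that of the other genes. CRYAB stands at 9.79 and 9.83 in treated A549 and at 4.49 to 4.97 in AD32, while the groups of most other genes overlap.

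In fold terms CRYAB was 7.39-fold higher in A549 in discodermolide than in A549 in DMSO (log2 difference 2.89, SE 0.45), and 4.51-fold lower in AD32 than in A549 in DMSO (log2 difference -2.17, SE 0.40). In the same 32 nM of drug it was 33.4-fold lower in AD32 than in A549 (log2 difference -5.06, SE 0.48). AD32 values straddled the lower quartile of their arrays (4.94, 4.84 and 4.80 for replicates 1 to 3), and no detection call shows signal above background at that level. The folds against AD32 are therefore ratios of signal and need not equal ratios of transcripts. In bulk RNA, fewer cells with a transcript and less of it per cell cannot be told apart.

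Among the A549 arrays those with a lower mitotic level had the higher CRYAB values. The 3 A549 arrays with G2/M means of 7.13 to 7.36 had CRYAB at 9.79, 9.83 and 8.20, and the untreated one was the lowest of the 3. The A549 DMSO arrays with G2/M means of 10.35 to 10.43 had CRYAB at 6.40 to 6.59. In AD32 the replicates with G2/M means of 5.44 and 6.61 had CRYAB at 4.80 and 4.97, and replicate 3, with 10.09, had 4.49, which is the same direction over a narrower range of CRYAB near the lower quartile. Without A549 DMSO replicate 1 the log2 difference of CRYAB between A549 in discodermolide and A549 in DMSO was 3.31. Of the 12 G2/M genes 0 passed in A549 in discodermolide against A549 in DMSO by limma, where 0.372% of all genes did. At an unadjusted p under 0.05 there were 2, both lower, against 11.1% of all genes. Their median log2 difference was -2.42, against 0.02 over all genes. The SEs of the 12 ran from 0.91 (AURKB) to 1.46 (PLK1), so the lack of calls does not show equal levels. The part of mitotic level in the difference was not tested.

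**Figure D2:**
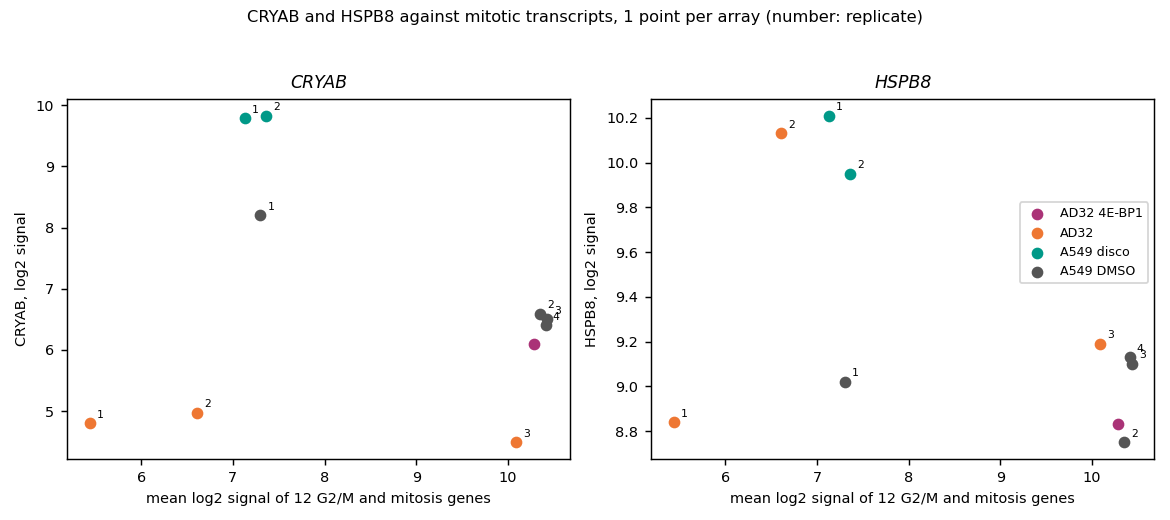
Log2 signal of CRYAB (left) and HSPB8 (right) on the vertical axis against the mean log2 signal of 12 G2/M and mitosis genes on the horizontal axis, 1 point per array with its replicate number, coloured by group. A549 DMSO replicate 1 (G2/M mean 7.30, CRYAB 8.20) lies between the other A549 DMSO arrays and the treated arrays for CRYAB, and AD32 stays at 4.49 to 4.97 over the whole range of mitotic level.

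The genes most like CRYAB over the 10 arrays, among 2832 genes with an SD of at least 0.5, were F2 (r = 0.984), MAPRE3 (r = 0.976), SIAE (r = 0.965), GPR137B (r = 0.956) and ANXA4 (r = 0.953). These correlations are a description over 10 arrays that share 4 groups, and the genes were picked for them. F2 encodes prothrombin and was 5.87 in AD32 4E-BP1, 5.14 to 5.32 in AD32, 7.37 and 7.01 in A549 in discodermolide and 5.84 to 6.32 in A549 in DMSO. MAPRE3 encodes a protein of microtubule plus ends and was 7.79 in AD32 4E-BP1, 6.71 to 7.05 in AD32, 9.35 and 9.32 in A549 in discodermolide and 7.22 to 8.71 in A549 in DMSO. SIAE (a sialic acid esterase), GPR137B (a lysosomal membrane protein) and ANXA4 (a calcium-dependent phospholipid-binding protein) had the same order of the A549 and AD32 groups, with log2 differences of 1.08, 1.09 and 0.76 between A549 in discodermolide and A549 in DMSO and of -0.70, -0.67 and -0.89 between AD32 and A549 in DMSO. In each of these 5 genes A549 DMSO replicate 1 was the highest of the 4 A549 DMSO arrays.

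No heat shock gene is among these 5. Genes with an SD under 0.5 over the arrays could not enter them, so nothing is read from that absence. Among the 9 other chaperone genes of the set, 0 passed an adjusted p of 0.05 in A549 in discodermolide against A549 in DMSO (limma with Benjamini-Hochberg adjustment over all genes, as throughout), where 0.372% of all genes did (0.35% higher and 0.0219% lower). At an unadjusted p under 0.05 there was 1, against 11.1% of all genes. The median log2 difference of the 9 was 0.19, against 0.02 over all genes. The arrays of the groups did not overlap for 3 of the 9, HSPB8, BAG3 and DNAJB1, all higher, and for 22.9% of all genes (15.2% higher and 7.71% lower). Since the set was chosen on this contrast, these counts are not read further.

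**Figure D3:**
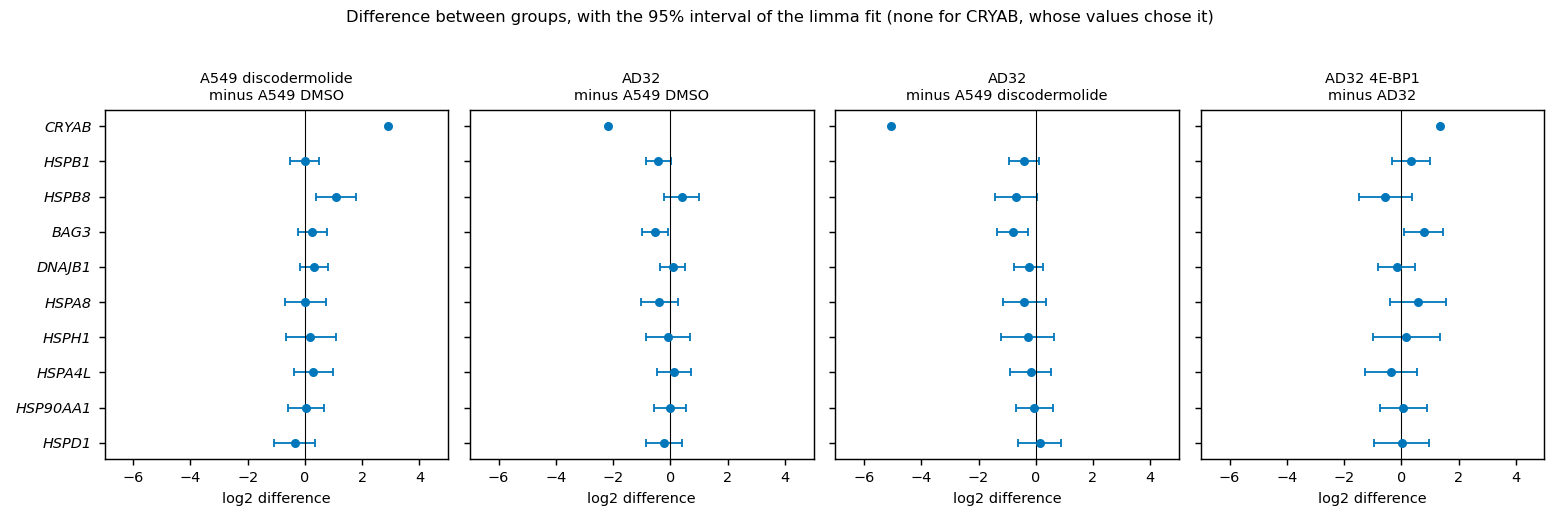
Log2 difference (horizontal axis) of the 10 genes in 4 comparisons, with bars for the 95% interval of the limma fit; no interval is drawn for CRYAB, whose values chose it. CRYAB stands at 2.89, -2.17 and -5.06 in the first 3 panels, and among the other 9 genes HSPB8 in the first panel and BAG3 in the other 3 have intervals clear of 0.

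HSPB8, a small heat shock protein that works with BAG3 in the selective autophagy of misfolded proteins, had the largest difference in treated A549 among the 9 other genes of the set. It was 10.21 and 9.95 in A549 in discodermolide, against 9.02, 8.75, 9.10 and 9.13 in A549 in DMSO. Both treated arrays lay above all untreated ones. The log2 difference was 1.08 (SE 0.31, interval 0.38 to 1.78, 2.12-fold), with an unadjusted p of 0.00675 and an adjusted p of 0.22 from limma. A549 DMSO replicate 1, which had a low mitotic level, did not stand out in HSPB8. Among the alternative settings, limma with array weights gave the smallest adjusted p, 0.0047, and the largest was 0.878.

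HSPB8 was uneven in AD32. It stood at 8.83 in AD32 4E-BP1 and at 8.84, 10.13 and 9.19 in AD32. Replicate 2 reached the level of treated A549, and the other AD32 arrays lay near A549 in DMSO. Against A549 in DMSO the log2 difference of AD32 was 0.39 (SE 0.27, limma adjusted p = 0.521), and against A549 in discodermolide it was -0.69 (SE 0.33, adjusted p = 0.365). Without AD32 replicate 2 the difference from A549 in discodermolide was -1.06 and passed the threshold (limma adjusted p = 0.0409).

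HSPB1, the widely expressed small heat shock protein also known as HSP27, hardly varied in A549. It was 12.11 in AD32 4E-BP1 and 11.89, 11.27 and 12.13 in AD32. In A549 in discodermolide it was 12.29 and 12.05, against 12.17, 12.16, 12.17 and 12.25 in A549 in DMSO. The interval of the drug difference in A549 was -0.51 to 0.48 on the log2 scale (difference -0.01). All 3 AD32 arrays lay below all A549 DMSO arrays, with a log2 difference of -0.43 (SE 0.19, limma adjusted p = 0.267), and AD32 replicate 2 was the lowest. The difference was -0.18 without that replicate.

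BAG3 is the co-chaperone that joins HSP70 to HSPB8 and to the autophagy machinery. It was 10.04 in AD32 4E-BP1 and 9.09, 9.33 and 9.36 in AD32. In A549 in discodermolide it was 10.09 and 10.05, against 9.24, 9.93, 10.04 and 10.02 in A549 DMSO replicates 1 to 4. The AD32 arrays lay below every other array except A549 DMSO replicate 1, which lay between them. The log2 difference of AD32 from A549 in discodermolide was -0.81 (SE 0.24, interval -1.35 to -0.26, unadjusted p = 0.00883, limma adjusted p = 0.122). Against A549 in DMSO the log2 difference was -0.55 (SE 0.20, unadjusted p = 0.0246, limma adjusted p = 0.173). Without A549 DMSO replicate 1 it was -0.74 and passed (limma adjusted p = 0.00873). The AD32 4E-BP1 array was 0.78 above the AD32 mean (SE 0.31, limma adjusted p = 0.459).

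In the HSP70 system the groups overlapped in most comparisons. DNAJB1, the HSP40 that delivers clients to HSP70 and is a common readout of heat shock, was 10.55 in AD32 4E-BP1 and 10.64, 10.52 and 10.97 in AD32. In A549 in discodermolide it was 11.00 and 10.91, against 10.22, 10.61, 10.80 and 10.90 in A549 in DMSO. The treated arrays lay just above the highest untreated one, with a log2 difference of 0.32 (SE 0.21, interval -0.16 to 0.80, limma adjusted p = 0.65).

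HSPA8, the constitutive cytosolic HSP70, was 13.67 in AD32 4E-BP1 and 13.17, 12.53 and 13.56 in AD32. In A549 in discodermolide it was 13.46 and 13.51, against 12.86, 13.55, 13.77 and 13.74 in A549 in DMSO. Its log2 difference with drug in A549 was 0.01 (SE 0.32, interval -0.71 to 0.73). The lowest arrays were AD32 replicate 2 and A549 DMSO replicate 1. HSPA8, HSPD1 and HSP90AA1 have pseudogene copies with near-identical sequence, and their probe sets may also bind transcripts of these.

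HSPH1 and HSPA4L encode HSP110 proteins, which release nucleotide from HSP70. HSPH1 was 10.73 in AD32 4E-BP1, 10.47, 10.51 and 10.69 in AD32 and 10.89 and 10.78 in A549 in discodermolide, against 9.55, 10.87, 11.15 and 11.00 in A549 in DMSO. HSPA4L was 9.92 in AD32 4E-BP1, 10.08, 10.59 and 10.18 in AD32 and 10.49 and 10.42 in A549 in discodermolide, against 9.48, 10.08, 10.54 and 10.58 in A549 in DMSO. In both genes A549 DMSO replicate 1 was the lowest array of all, and the log2 differences with drug in A549 were 0.19 (interval -0.68 to 1.07) and 0.29 (interval -0.39 to 0.97).

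HSP90AA1 encodes the stress-inducible cytosolic HSP90, and HSPD1 the mitochondrial chaperonin HSP60. HSP90AA1 was 12.74 in AD32 4E-BP1, 12.67, 12.40 and 12.94 in AD32 and 12.80 and 12.64 in A549 in discodermolide, against 12.03, 12.79, 12.97 and 12.94 in A549 in DMSO. HSPD1 was 11.57 in AD32 4E-BP1, 11.32, 11.69 and 11.65 in AD32 and 11.54 and 11.29 in A549 in discodermolide, against 10.99, 11.75, 12.22 and 12.14 in A549 in DMSO. For both, the groups overlapped in A549, with log2 differences with drug of 0.04 (interval -0.58 to 0.65) and -0.36 (interval -1.07 to 0.36).

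A549 DMSO replicate 1 was the lowest of the 4 A549 DMSO arrays in 7 of the 10 genes (35.2% of all genes), and the highest in 1 gene, CRYAB (41.5% of all genes). The 7 genes were DNAJB1, HSPH1, HSPA8, HSPA4L, HSP90AA1, HSPD1 and BAG3. It was the lowest of all 10 arrays in 5 of the 10 (DNAJB1, HSPH1, HSPA4L, HSP90AA1 and HSPD1) and in 16.5% of all genes.

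Resistance together with growth in drug was examined in AD32 against A549 in DMSO. None of the 9 tested genes passed there (0 of 9 by limma, 1 at an unadjusted p under 0.05, BAG3), where 5.72% of all genes passed (3.52% higher and 2.19% lower) and 19.7% had an unadjusted p under 0.05. Their median log2 difference was -0.08, against 0.01 over all genes. Arrays did not overlap in 1 of the 9, HSPB1 (lower in AD32), and in 15.4% of all genes (8.9% higher and 6.48% lower). Against A549 in the same drug the count was again 0 of 9 by limma (1 at an unadjusted p under 0.05, BAG3), with 3.74% of all genes called (1.28% higher and 2.46% lower) and 15.5% at an unadjusted p under 0.05. The median log2 difference of the 9 there was -0.27, against 0.01 over all genes, and arrays did not overlap in 2 (BAG3 and HSPH1, both lower in AD32) and in 32.3% of all genes (14.4% higher and 18.0% lower). The comparisons share arrays, and the rule used both.

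The line named for 4E-BP1 and labelled sensitive was set against AD32, labelled resistant. CRYAB lay above all 3 AD32 arrays, by a log2 difference of 1.34 (SE 0.60). It stayed below every A549 array. Its AD32 values are among those that chose it, so this difference too is a description. The fit takes the spread of this single array from the groups with replicates. Of the other 9 genes, 0 passed (1 at an unadjusted p under 0.05, BAG3), where 0.919% of all genes passed (0.339% higher and 0.58% lower) and 9.46% had an unadjusted p under 0.05. The mitotic mean of the AD32 4E-BP1 array (10.28) was above those of AD32 replicates 1 and 2 and close to that of replicate 3 (10.09), on which CRYAB was 4.49.

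The wider chaperone network was followed in 74 further genes, namely other small heat shock proteins, DNAJ proteins, HSP70, HSP90 and chaperonin genes, BAG and other HSP70 cofactors, heat shock factors and other HSF1-inducible genes. In A549 in discodermolide against A549 in DMSO, 0 of 74 passed by limma, where 0.372% of all genes did. At an unadjusted p under 0.05 there were 5 higher and 1 lower, against 11.1% of all genes in either direction. The median log2 difference of the 74 was -0.02, against 0.02 over all genes. The 13 measured HSF1-inducible genes had a median of 0.05 and 0 with an unadjusted p under 0.05. All 9 chaperonin subunit genes, which encode HSPE1 (the partner of HSPD1) and the CCT complex that folds tubulin and actin, had negative differences. Their median was -0.15, against 0.02 over all genes. Of the 9, 0 were called, 0 had an unadjusted p under 0.05 by limma, and the arrays of the groups overlapped in each. Nothing is read from the shared sign.

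HSF1, the heat shock factor itself, was 9.38 in AD32 4E-BP1, 9.16 to 9.38 in AD32 and 9.47 and 9.39 in A549 in discodermolide, against 8.89 to 9.35 in A549 in DMSO (log2 difference with drug 0.30, SE 0.17, limma adjusted p = 0.577). HSPA5, the HSP70 of the endoplasmic reticulum, was 11.33 and 11.46 in A549 in discodermolide, against 11.94, 11.81, 12.30 and 12.25 in A549 in DMSO. Both treated arrays lay below all untreated ones, with a log2 difference of -0.68 (SE 0.26, unadjusted p = 0.0267, limma adjusted p = 0.369). HSP90AB1, the constitutive cytosolic HSP90, had a log2 difference of -0.16 (SE 0.22, limma adjusted p = 0.879). HSPA1A, HSPB2 and HSF2 had no probe set of their own in the annotation used and are not reported here. The remaining small heat shock protein genes HSPB3, HSPB6, HSPB7 and HSPB9 had levels of 3.59 to 6.32 and 0 calls in any of the 4 comparisons (0 at an unadjusted p under 0.05 too).

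**Figure D4:**
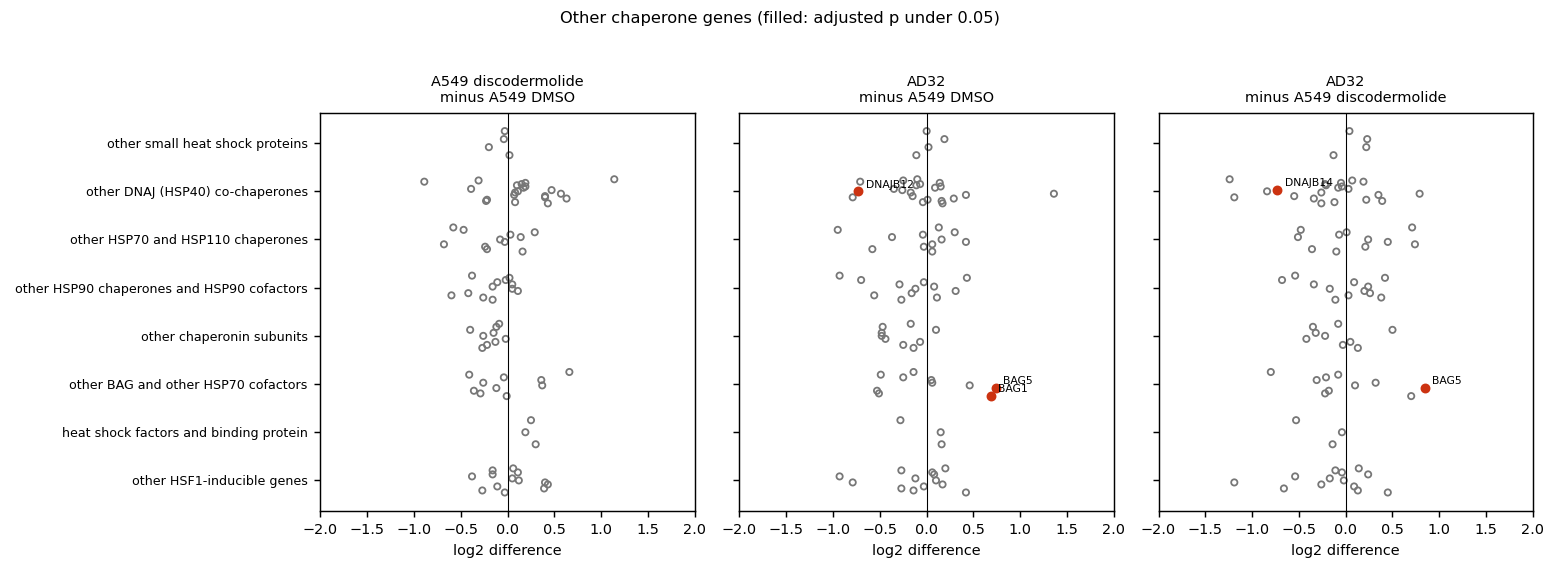
Log2 difference (horizontal axis) of each measured gene of the other chaperone lists (rows) in 3 comparisons, with filled and named points for an adjusted p under 0.05. No point is filled for A549 in discodermolide against A549 in DMSO, and BAG1, BAG5 and DNAJB12 are filled for AD32 against A549 in DMSO.

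In AD32, 2 of the 74 further genes were called higher than in A549 in DMSO, against 3.52% of all genes. Both were among the 10 other BAG and HSP70 cofactor genes. That list also had 2 genes lower at an unadjusted p under 0.05 by limma, and its median log2 difference was -0.05. BAG1, which encodes an HSP70 nucleotide exchange factor and BCL2 partner, was 8.69, 8.74 and 9.22 in AD32, against 8.10, 8.38, 8.13 and 8.17 in A549 in DMSO. All AD32 arrays lay above all A549 DMSO arrays (log2 difference 0.69, SE 0.15, limma adjusted p = 0.0342). BAG5, another HSP70 nucleotide exchange factor, was 8.79, 8.75 and 8.53 in AD32, against 7.58, 7.90, 8.17 and 8.15 in A549 in DMSO (log2 difference 0.74, SE 0.16, limma adjusted p = 0.0336). Of 16 alternatives, BAG1 lost its call under 8 and BAG5 under 9. Among these, both lost it without AD32 replicate 1 (limma adjusted p = 0.0524 and 0.119) or 2 (0.0679 and 0.121). Both also lost it without A549 DMSO replicate 3 (0.103 and 0.0547) or 4 (0.103 and 0.0605), and BAG5 without A549 DMSO replicate 2 (0.0821). Against A549 in discodermolide BAG5 was higher in AD32 by 0.85 on the log2 scale (limma adjusted p = 0.0499) and BAG1 had a difference of 0.70 (adjusted p = 0.0831). Under 10 of 14 alternatives BAG5 did not pass there, among them without AD32 replicate 1 (0.136) or 2 (0.126) and without either treated replicate (0.247 and 0.321).

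In AD32 against A549 in DMSO the remaining BAG genes did not pass. Their log2 differences had both signs, -0.51 for BAG2, -0.55 for BAG3, -0.53 for BAG4 and 0.46 for BAG6. DNAJB12, a DNAJ protein of the endoplasmic reticulum membrane, was lower in AD32 (7.14, 7.43 and 7.55, against 7.72, 8.41, 8.10 and 8.18 in A549 in DMSO, log2 difference -0.73, SE 0.18, limma adjusted p = 0.0491). It lost its call under 9 of 16 alternatives, among them without AD32 replicate 1 (adjusted p = 0.166) or 2 (0.127) and without A549 DMSO replicate 2 (0.103), 3 (0.123) or 4 (0.138). DNAJB14, a related membrane DNAJ protein, was lower in AD32 than in A549 in discodermolide (log2 difference -0.73, SE 0.16, limma adjusted p = 0.0381) and kept the call under 3 of 14 alternatives. It lost it without AD32 replicate 1 (adjusted p = 0.0991) or 3 (0.0505) and without either treated replicate (0.295 and 0.152). Of the 74 further genes, AD32 against A549 in DMSO had 2 higher and 1 lower, where 3.52% of all genes were higher and 2.19% lower. AD32 against A549 in discodermolide had 1 and 1, where 1.28% of all genes were higher and 2.46% lower.

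CRYAB lies on chromosome 11, and its neighbours were examined by position, a choice made after the values of CRYAB had been seen. The 5 nearest measured genes on each side were SIK2, PPP2R1B, ALG9, FDXACB1 and CFAP68 on one side and DIXDC1, DLAT, PIH1D2, NKAPD1 and TIMM8B on the other. In AD32 against A549 in DMSO 3 of the 10 were called lower, where 2.19% of all genes were. The median log2 difference of the 10 was -0.49, against 0.01 over all genes.

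SIK2, a salt-inducible kinase gene, was 9.22 in AD32 4E-BP1 and 7.06, 7.77 and 7.81 in AD32, against 9.59, 9.19, 8.68 and 8.78 in A549 in DMSO. All AD32 arrays lay below all others (AD32 against A549 in DMSO, log2 difference -1.51, SE 0.26, limma adjusted p = 0.0112). DIXDC1, a component of Wnt signalling that lies next to CRYAB among the measured genes, was 7.40 in AD32 4E-BP1 and 6.10, 6.37 and 6.21 in AD32, against 7.41, 7.22, 7.33 and 7.28 in A549 in DMSO (log2 difference of AD32 -1.08, SE 0.12, limma adjusted p = 0.00124). In AD32 4E-BP1 it was higher than in AD32 by 1.18 on the log2 scale (SE 0.18, limma adjusted p = 0.0197). PPP2R1B, which encodes a scaffold subunit of protein phosphatase 2A, was 9.36 in AD32 4E-BP1 and 7.75, 8.08 and 9.12 in AD32, against 9.93, 9.74, 9.73 and 9.70 in A549 in DMSO (log2 difference of AD32 -1.46, SE 0.28, limma adjusted p = 0.017).

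SIK2 and DIXDC1 kept their call in AD32 against A549 in DMSO under all 16 alternatives. PPP2R1B lost it under 5, namely without AD32 replicate 1 (limma adjusted p = 0.0564) or 2 (0.079), without A549 DMSO replicate 3 (0.0534) or 4 (0.0526), and with the last 2 averaged (0.0531). DIXDC1 in AD32 4E-BP1 against AD32 lost it with only those groups fitted (limma adjusted p = 0.419) and with A549 DMSO replicates 3 and 4 averaged (0.0517). The far neighbours NKAPD1 and TIMM8B had log2 differences of 0.08 and 0.26 in AD32 against A549 in DMSO, and neither passed. In AD32 4E-BP1 against AD32, which differ in drug as well, 8 of the 10 neighbours had positive differences. Their median log2 difference was 0.61, against -0.03 over all genes, and rests on the single AD32 4E-BP1 array.

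With drug in A549, 0 of the 10 neighbours passed by limma, where 0.372% of all genes did. At an unadjusted p under 0.05 there were 1 higher and 1 lower, against 11.1% of all genes in either direction. The median log2 difference of the 10 was -0.03, against 0.02 over all genes. CFAP68, next to CRYAB on the other side, was 8.01 and 8.10 in A549 in discodermolide, against 7.71, 7.50, 7.62 and 7.63 in A549 in DMSO (log2 difference 0.44, SE 0.19, limma adjusted p = 0.417). In AD32 it was 6.66, 7.35 and 6.98, which was lower than in A549 in discodermolide by a log2 difference of -1.06 (SE 0.20, limma adjusted p = 0.0202, lost without either treated replicate at 0.136 and 0.184). With CFAP68, 3 of the 10 neighbours were called lower in AD32 against A549 in discodermolide, where 2.46% of all genes were. This comparison shares the AD32 arrays with the one against A549 in DMSO. The others were SIK2 and DIXDC1 (log2 differences -1.58 and -0.76, limma adjusted p = 0.0261 and 0.0216). Each lost the call in that comparison under 5 of 14 alternatives, including without either treated replicate (0.199 and 0.168 for SIK2, 0.199 and 0.127 for DIXDC1) and without AD32 replicate 1 (0.0676 and 0.0645), and SIK2 also without AD32 replicate 2 (0.0521).

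**Figure D5:**
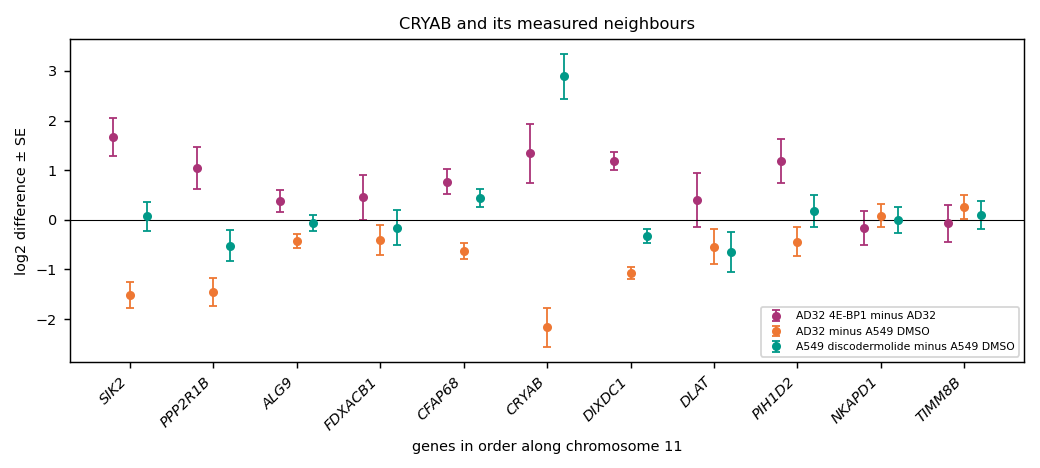
Log2 difference with its SE (vertical axis) of CRYAB and its 10 nearest measured neighbours in their order along chromosome 11 (horizontal axis, not to scale), in AD32 4E-BP1 against AD32, AD32 against A549 in DMSO, and A549 in discodermolide against A549 in DMSO. SIK2, PPP2R1B, CRYAB and DIXDC1 lie between -2.17 and -1.08 for AD32, while with drug in A549 CRYAB (2.89) stands apart from neighbours at -0.65 to 0.44.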

How the data were processed

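The authors deposited log2 values per probe set for 10 arrays. Affymetrix Expression Console is named in the submitters' processing notes. For its version, the summarisation, the normalization and any genome build nothing is given in the sources used here. The log2 scale was judged from the range of the values. Of 24308 probe sets, 19262 named 1 gene, 1720 several and 3326 none in the annotation used. The first kind gave 18279 genes, and 740 of these had several probe sets, of which the one highest on average was taken.

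Groups came from the labels. Tests used limma 3.58.1 in R 4.3.3 (lmFit and eBayes, all 10 arrays, 4 group means, 6 residual degrees of freedom, two-sided, Benjamini-Hochberg over all genes, threshold 0.05) and were checked on simulated data. The number of arrays limits the precision. No filter on low values was applied, so none of the 10 genes was removed. The genes of the set, the chaperone lists and the alternatives were chosen with earlier results of these data known. Named genes were all 10 of the set, up to 3 called genes per list and comparison, HSF1, HSF2, HSPA1A, HSPA5, HSPB2 and HSP90AB1, and the 5 genes most correlated with CRYAB. EIF4EBP1 and marker genes served as checks, and CRYAB's neighbours were added by position. Fitted differences were also computed with arrays centred on their medians and with a quantile normalization of the deposited values. Other alternatives were the genes of lowest mean level left out, a trended robust prior, array weights, the compared groups alone and the mean of probe sets. The last were a replicate block, each replicate left out, and A549 DMSO replicates 3 and 4 averaged. A change of sign counted as a reversal only where the value reported or the alternative passed. Promoter windows were read from RefSeq tables with Python 3.11.15.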

Additional observations from a re-analysis of the deposited data

Results flagged for a closer look

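In the group of 4 A549 DMSO arrays, 3 of the 10 genes had an array whose gap to its nearest neighbour exceeded Dixon's limit as a share of the group's range, which chance gives in about 1 in 20 groups. Over all genes the share was 13.7% (2503 of 18279). CRYAB was highest on A549 DMSO replicate 1, at 8.20, with the next array at 6.59. BAG3 was lowest on the same array, at 9.24, with the next at 9.93. HSPB1 was highest on A549 DMSO replicate 4, at 12.25, with the next at 12.17, a gap of small size in a narrow group. A549 DMSO replicate 1 is also the array with the G2/M mean of 7.30, against 10.35 to 10.43 in the other 3, and the part of that level in its chaperone values was not tested.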

How the results depend on the processing

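Settings were varied 1 at a time, and 0 results reversed. The counts of called genes of the set, each 0 as reported, were with array weights 2 for A549 in discodermolide against A549 in DMSO (HSPB8 and HSPD1), 3 for AD32 against A549 in DMSO (BAG3, HSPA8 and HSPB1), 1 for AD32 against A549 in discodermolide (BAG3) and 2 for AD32 4E-BP1 against AD32 (BAG3, adjusted p = 0.0387, and CRYAB, of which nothing is read because its AD32 values chose it). Over all 18279 genes, array weights called 4573, 4215, 1869 and 1282 in these comparisons, in the same order. The counts of the set under this setting are therefore not read further. Array weights gave A549 DMSO replicate 1 a weight of 0.184. The largest weights, 2.925 and 4.637, went to A549 DMSO replicates 3 and 4, the nearly identical arrays. How far calls under this setting rest on that pair was not tested. A quantile normalization of the deposited values gave 1 for AD32 against A549 in discodermolide (BAG3, limma adjusted p = 0.0453). With each replicate left out the counts ran from 0 to 1 for AD32 against A549 in DMSO, and from 0 to 1 for AD32 against A549 in discodermolide. The cause was not tested. The CRYAB log2 difference lay between 2.50 and 3.32, between -2.35 and -1.68 and between -5.17 and -4.84 in the 3 comparisons that chose it.

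The count over all genes was 68 for A549 in discodermolide against A549 in DMSO. It was 36 without the genes of lowest mean level, which tests fewer genes, 4573 with array weights, 106 with only those groups fitted, 4 with the replicate block, 15 with A549 DMSO replicates 3 and 4 averaged, and 8 to 643 with 1 replicate left out. For AD32 against A549 in DMSO it was 1045, and then 4215 with array weights, 650 with the block, 525 with the averaging and 512 to 2164 with 1 left out. For AD32 against A549 in discodermolide it was 683, and then 1869 with array weights, 353 with only those groups and 132 to 1082 with 1 left out. For AD32 4E-BP1 against AD32 it was 168, and then 107 without the genes of lowest mean level, 1282 with array weights, 13 with only those groups, 99 with the averaging and 113 to 656 with 1 left out.

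Replicate numbers gave no pairing of the samples, since the correlations of same-numbered deviations were 0.68, -0.26 and 0.41 for AD32 and A549 in DMSO, and AD32 replicate 2 correlated best with A549 DMSO replicate 1 (0.17). With the replicate block 0 genes of the set passed in the 3 comparisons it could be fitted in. No paired analysis was possible for AD32 4E-BP1 because its lone array carries no number. Low signals near the lower quartile, as for CRYAB in AD32, limit what a fold can mean.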

Other observations

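The following genes of the chaperone lists were picked after their values were seen, and none passed over all genes in the 4 comparisons. DNAJB9, a DNAJ protein of the endoplasmic reticulum, was 5.39 in AD32 4E-BP1 and 7.43, 8.51 and 6.02 in AD32. It was 6.36 and 6.69 in A549 in discodermolide, against 5.47 to 6.19 in A549 in DMSO (AD32 against A549 in DMSO, log2 difference 1.36, SE 0.48, limma adjusted p = 0.153). AD32 replicate 2 had the highest value of DNAJB9. DNAJC12, a co-chaperone of the aromatic amino acid hydroxylases, was 9.09 and 9.96 in A549 in discodermolide, against 9.81 on A549 DMSO replicate 1 and 7.85 to 7.98 on the other 3 A549 DMSO arrays, so that replicate 1 lay within the treated arrays (log2 difference 1.14, SE 0.64, limma adjusted p = 0.571).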
